A study of Homo sapiens with 18 samples.

Results

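The 10 genes described here encode Src family kinases and proteins of the focal adhesion, the structure through which a cell holds its substrate. They are *SRC*, *YES1*, *FYN* and *LYN* (Src family kinases), *CSK* (their inhibitory kinase), *PTK2* (focal adhesion kinase), *PXN* (paxillin), *BCAR1* (p130Cas), *CTTN* (cortactin) and *CAV1* (caveolin-1). The genes were taken by name through their Entrez IDs, and 10 of 10 were found among 23604 genes listed in at least 1 of 8 RNA-Seq libraries. All 10 passed the filter on low counts, which left 16948 genes to test. In the same cells, the start of each gene was looked up in 4 lists of RNA polymerase II (RNAPII) peaks, which hold only peaks over an annotated gene start (transcription start site, TSS).

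The cells were MCF10A-ErSrc, a line of human breast epithelial cells that carries v-Src, a viral form of the Src kinase, fused to the hormone-binding domain of the oestrogen receptor, so that tamoxifen turns the kinase on. Cells without tamoxifen (NT) and cells treated with tamoxifen (TAM, the samples titled T) were given DMSO or triptolide (TPL) at a single nanomolar dose for 4 h. TPL is a plant compound that binds XPB, the ATPase of TFIIH, and thereby blocks transcription initiation. This gave the groups NT, NT + TPL, TAM and TAM + TPL, each with 2 RNA-Seq libraries from independent biological replicates and 1 RNAPII peak list, which the labels of both ChIP-Seq samples of that group name. All groups carry the transgene and come from 1 line, so an effect of tamoxifen itself and an effect of active v-Src cannot be told apart in the comparison of TAM with NT cells.

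Src family kinases are held inactive when CSK phosphorylates a tyrosine in their tail. Active SRC binds focal adhesion kinase at sites of integrin attachment, and together they phosphorylate the scaffold proteins paxillin and p130Cas, which recruit further adaptors and drive adhesion turnover and migration. Cortactin, a Src substrate, binds branched actin, and caveolin-1, the coat protein of caveolae, is itself phosphorylated by Src.

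The libraries held 7461309 to 8349448 expected counts. Of 9 epithelial markers, 8 were at 1 FPKM or more in every library, with *TP63* at 0.28 to 24.2 FPKM. The summed FPKM of the 9 markers was 17240 to 19090 in NT cells, 10610 to 13440 after TPL, 8153 to 8441 in TAM cells and 4246 to 4619 in these after TPL, so it was lower in the same groups as several of the genes below, and its part in those differences was not tested. Of 11 leukocyte, endothelial and fibroblast markers, *CDH5* was at 0 in every library and *VWF*, *CD3E* and *LUM* did not exceed 0.29 FPKM. *CD14* was at 5.75 to 18.6 FPKM and *DCN* at 3.67 to 6.69 FPKM. The others were at 0.16 to 2.14 (*PTPRC*), 0.11 to 0.46 (*CD79A*), 0.46 to 1.69 (*PECAM1*), 0.5 to 6.14 (*COL1A1*) and 0 to 1.15 FPKM (*COL1A2*). In bulk RNA, fewer cells that express a gene and less RNA per cell cannot be told apart.

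With TPL, 7 of the 10 genes passed the threshold (adjusted p of 0.05) in NT cells, beside 37% of all genes tested, and 5 passed in TAM cells, beside 33%. *SRC*, *CSK*, *PXN*, *BCAR1* and *CAV1* fell in both cell states. *FYN* and *LYN* rose in NT cells, and *YES1*, *PTK2* and *CTTN* did not pass in either state. For *PTK2* this holds for 1 of its 2 rows. With both rows summed it fell past the threshold in NT (−0.53, adjusted p = 0.0461) and in TAM cells (−0.68, adjusted p = 0.018). All these levels are relative to other RNA of the same library. Whether RNA per cell rose, held or fell with TPL was not tested. By direction, 5 genes fell in NT cells (19.8% of all genes) and 2 rose (17.2%), while 5 fell in TAM cells (18.6%) and none rose (14.3%). The rises depended on the settings. In NT cells *GAPDH* scaling or a fit of the 2 groups alone left 0. In TAM cells 2 rose (*FYN* and *LYN*) with library size, the upper quartile, a minimum of 10 counts, a fit of the 2 groups alone or limma on log2(FPKM + 0.1). Over the 10 genes the log2 fold change had a median of −1.20 (NT) and −0.98 (TAM), beside 0.09 and 0.05 over all genes. In DMSO, TAM cells had less *SRC* and *CAV1* and more *BCAR1* RNA than NT cells, which were 3 of 10 genes past that threshold, beside 6.84%, and with TPL present *SRC* and *CAV1* were lower, which were 2 of 10, beside 7.03%. The stricter thresholds are those of the study (adjusted p up to 0.001, with a log2 change of 1.2 or more in either direction). The test is not one that the study names, and the study reported larger shares of genes as changed, with TPL and between TAM and NT cells. By these thresholds TPL called *CSK* in NT cells (1 of 10, beside 3.93% of all genes) and *CSK* and *CAV1* in TAM cells (2 of 10, beside 2.88%). Only *CAV1* differed between TAM and NT cells, in DMSO (1 of 10, beside 0.655%) and with TPL (1 of 10, beside 0.596%). All adjusted p-values are from the quasi-likelihood test of edgeR, adjusted over all genes tested.

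**Figure D1:**
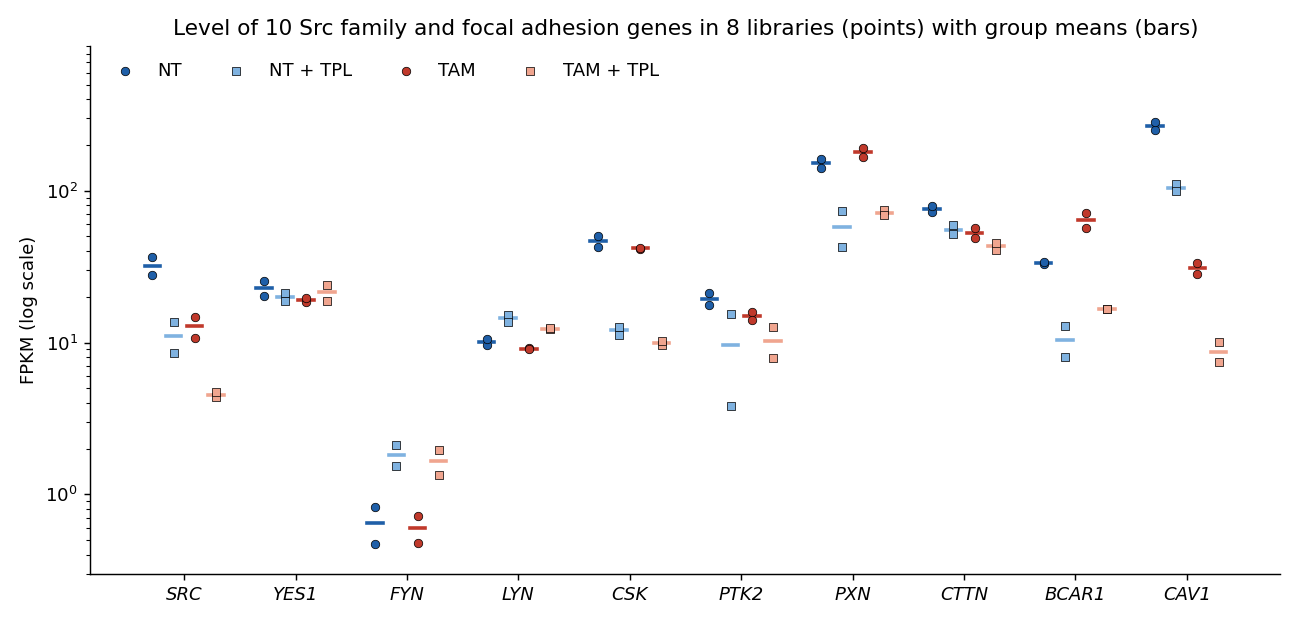
RNA level of the 10 genes in FPKM on a log axis. Points are the 8 libraries, coloured by group, and bars are the means of 2 libraries. *CAV1* steps down from 252 and 282 FPKM in NT to 7.40 and 10.04 FPKM in TAM + TPL cells, while *YES1* stays between 18.6 and 25.6 FPKM in all libraries.

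On the FPKM scale, which is per transcript length, the order of the genes differed between cell states. In NT cells *CAV1* was the highest at 267 ± 21.3 FPKM (mean ± SD, n = 2), followed by *PXN* at 152 ± 13.4 and *CTTN* at 75.8 ± 4.44 FPKM. *CSK*, *BCAR1*, *SRC*, *YES1*, *PTK2* and *LYN* followed between 46.5 and 10.1 FPKM, and the ranges of *BCAR1* with *SRC* and of *YES1* with *PTK2* overlapped. *FYN* was the lowest gene in all 4 groups, at 0.60 to 1.81 FPKM in the means. In TAM cells *PXN* led at 179 ± 16.6 FPKM, *BCAR1* ranked 2 at 64.0 ± 9.72 FPKM, and *CAV1* ranked 5 at 30.8 ± 3.56 FPKM. In TAM + TPL cells *CAV1* ranked 8 at 8.72 ± 1.87 FPKM, with a range that overlapped that of *CSK* at 9.89 ± 0.431 FPKM. Among the Src family kinases, the *SRC* row, which may hold reads of the transgene, was the highest in NT cells. *YES1* was the highest in the other 3 groups.

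*SRC* encodes the founding member of the family. Its level was 27.9 and 36.4 FPKM in the NT libraries, 13.7 and 8.57 FPKM after TPL, 14.8 and 10.7 FPKM in the TAM libraries and 4.37 and 4.72 FPKM in TAM cells after TPL. The libraries of each TPL group lay below those of its DMSO group, and those of TAM lay below those of NT cells. The log2 fold change with TPL was −1.54 ± 0.257 (SE, adjusted p = 0.00476) in NT cells and −1.54 ± 0.266 (SE, adjusted p = 0.00615) in TAM cells. Between cell states it was −1.32 ± 0.255 (SE, adjusted p = 0.0276) in DMSO and −1.31 with TPL (SE 0.266, adjusted p = 0.0329). The mean of TAM + TPL cells was 14.2% of that of NT cells. The difference between TAM and NT cells in DMSO passed in 11 of 12 other settings. It did not pass with a replicate block in the edgeR fit (−1.34, adjusted p = 0.0526). With TPL it passed in 10 of 12, and not with the block (−1.29, adjusted p = 0.0645) or with only the 2 groups compared (−1.29, adjusted p = 0.0831). The call between TAM and NT in DMSO was lost when any library of NT, TAM or TAM + TPL was left out (6 of 8 cases, −1.57 to −1.10, adjusted p up to 0.192), and that with TPL was lost without any 1 library except NT + TPL replicate 2 (7 of 8 cases, −1.33 to −0.94, adjusted p up to 0.204). The fall in TAM cells had an adjusted p of 0.0553 without TAM + TPL replicate 1.

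The *SRC* row cannot be read as the cellular gene alone, since the transcript of the transgene resembles it, and the share of the transgene in the row was not tested. The hormone-binding domain of the transgene comes from the oestrogen receptor, the product of *ESR1*, so the *ESR1* row is set beside it. *ESR1* had 10359 and 12872 expected counts in the NT libraries, 6286 and 3813 after TPL, 5097 and 3655 in the TAM libraries and 1770 and 2078 in TAM cells after TPL. *SRC* had 926 and 1207, 430 and 266, 508 and 365, and 134 and 158 expected counts in the same order. Both rows stepped down over the same groups, with 10.01 to 14.6 *ESR1* counts for each *SRC* count. This ratio was 10.01 to 11.2 in the 4 DMSO libraries and 13.2 to 14.6 in the 4 TPL libraries. *ESR1* fell by 1.13 on the log2 scale with TPL in NT cells (SE 0.253, adjusted p = 0.014) and by 1.14 ± 0.254 (SE, adjusted p = 0.0151) in TAM cells, and it was lower in TAM than in NT cells by 1.44 (log2 fold change −1.44, SE 0.254, adjusted p = 0.0198).

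**Figure D2:**
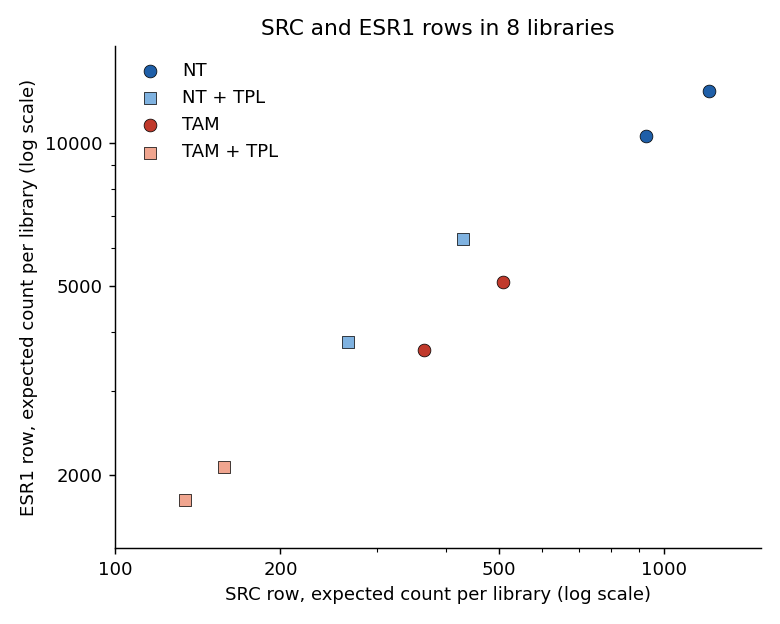
Expected counts of the *ESR1* row against those of the *SRC* row, both on log axes, for 8 libraries coloured by group. The libraries run from TAM + TPL (134 and 158 *SRC* counts) at the lower left to NT (926 and 1207 *SRC* counts) at the upper right, with the NT + TPL and TAM libraries between them.

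Over the 8 libraries, the profiles most like that of *SRC* were those of *ARAP3* (Pearson r = 0.993 on log2(FPKM + 1)), *PHLDB1* (0.986), *ARHGAP10* (0.984), *SPEG* (0.984) and *TNIP1* (0.983), out of 14488 genes with a mean of at least 1 FPKM. These points share 8 libraries in 4 groups, so the coefficients describe the profiles and carry no test. *ARAP3* ran from 9.02 and 9.58 FPKM in NT to 1.72 and 2.02 FPKM in TAM + TPL cells.

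None of the other 3 Src family kinases fell past the threshold with TPL. *YES1*, the closest relative of *SRC*, was at 20.1 and 25.6 FPKM in the NT libraries, 21.3 and 18.7 FPKM after TPL, 18.6 and 19.8 FPKM in the TAM libraries and 18.7 and 24.0 FPKM in TAM cells after TPL, so the DMSO and TPL libraries overlapped in both cell states. Its log2 fold change with TPL was −0.20 in NT (95% interval −0.62 to 0.22, adjusted p = 0.401) and 0.11 in TAM cells (−0.31 to 0.53, adjusted p = 0.661). *LYN*, which is best known from blood cells, was at 9.62 and 10.5 FPKM in the NT libraries, 15.3 and 13.6 FPKM after TPL, 9.14 and 9.01 FPKM in the TAM libraries and 12.2 and 12.5 FPKM in TAM cells after TPL. Every TPL library was above every DMSO library. The log2 fold change was 0.51 ± 0.127 (SE, adjusted p = 0.0204) in NT cells and 0.40 in TAM cells, just short of passing (SE 0.127, adjusted p = 0.0502). *FYN*, a kinase of T cells and neurons among others, had 14 to 51 expected counts per library and was at 0.47 and 0.83 FPKM in the NT libraries, 1.53 and 2.10 FPKM after TPL, 0.48 and 0.72 FPKM in the TAM libraries and 1.95 and 1.34 FPKM in TAM cells after TPL. Its log2 fold change was 1.45 ± 0.450 (SE, adjusted p = 0.0423) in NT and 1.37 ± 0.451 (SE, adjusted p = 0.0551) in TAM cells. None of the 3 passed between TAM and NT cells in DMSO, with adjusted p-values of 0.532 for *YES1*, 0.635 for *LYN* and 0.943 for *FYN*.

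The rises of *LYN* and *FYN* in NT cells depended on the libraries and on the scaling. The *FYN* call was lost when any 1 of the 8 libraries was left out, with log2 fold changes of 1.15 to 1.80 (adjusted p = 0.0558 to 0.178), and the *LYN* call was lost without NT replicate 1 (0.43, adjusted p = 0.113) or NT replicate 2 (0.57, adjusted p = 0.0716). With the libraries scaled to equal *GAPDH* counts, the log2 fold change of *LYN* in NT cells was 0.14 (adjusted p = 0.611) and that of *FYN* was 1.08 (adjusted p = 0.131). *GAPDH* itself had a value of 0.35 ± 0.139 with TPL in NT cells (log2 scale, SE, adjusted p = 0.0875) under the main scaling. The *FYN* call in NT cells was also lost without the filter (1.42, adjusted p = 0.0683) and with the replicate block (1.46, adjusted p = 0.0635). A fit of the 2 groups alone lost the NT calls of *FYN* (1.46, adjusted p = 0.0706) and *LYN* (0.525, adjusted p = 0.0844). In TAM cells the *LYN* difference passed without NT + TPL replicate 1 (0.40, adjusted p = 0.0363) or replicate 2 (0.40, adjusted p = 0.0369). With all libraries it passed in TAM cells in 7 of 12 other settings (0.28 to 0.64 over the 12, adjusted p = 0.00932 to 0.313), among them DESeq2 and the upper quartile. *FYN* in TAM cells also passed in 7 of 12 (0.72 to 1.61, adjusted p = 0.0140 to 0.102). *LYN* and *FYN* are also expressed in leukocytes, and a link of these rises to leukocyte markers was not tested. The summed FPKM of 4 leukocyte markers, most of it *CD14*, was 9.63 to 11.7 in NT and 17.2 to 20.4 in NT + TPL cells. It was 7.72 to 8.31 in TAM and 7.54 to 9.76 in TAM + TPL cells. Over all libraries *PTPRC* was at 0.16 to 2.14 FPKM, while *CD3E* stayed at or below 0.17 FPKM and *CD79A* at or below 0.46 FPKM.

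*CSK*, the kinase that shuts off the Src family, had the largest fall of the 10 genes with TPL in both cell states. Its level was 50.5 and 42.5 FPKM in NT against 12.7 and 11.3 FPKM in NT + TPL cells, and 41.6 and 42.3 FPKM in TAM against 9.59 and 10.2 FPKM in TAM + TPL cells. The TPL groups were at 25.8% and 23.6% of the DMSO means. The log2 fold change was −1.998 ± 0.147 (SE, adjusted p = 0.000321) in NT and −2.11 ± 0.148 (SE, adjusted p = 0.000347) in TAM cells, and without any 1 library it ranged from −2.15 to −1.85 (NT) and from −2.13 to −2.09 (TAM). Between TAM and NT cells in DMSO *CSK* had a log2 fold change of −0.12 (95% interval −0.45 to 0.21, adjusted p = 0.700).

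*PTK2* encodes focal adhesion kinase, the tyrosine kinase that docks SRC at integrins. Its level was 17.6 and 21.2 FPKM in the NT libraries, 15.4 and 3.84 FPKM after TPL, 15.9 and 14.1 FPKM in the TAM libraries and 7.90 and 12.7 FPKM in TAM cells after TPL. The log2 fold change with TPL was −1.04 ± 0.541 (SE, adjusted p = 0.169) in NT and −0.59 ± 0.538 (SE, adjusted p = 0.427) in TAM cells. A second row, for 1 *PTK2* transcript, held 69.5% of the counts of both rows in NT + TPL replicate 2 and 11.6% to 42.8% in the other 7 libraries, so the estimated counts were split differently between the rows. With both rows added, *PTK2* had 815 and 896 expected counts in the NT libraries, 686 and 440 after TPL, 864 and 949 in the TAM libraries and 478 and 626 in TAM cells after TPL. The summed counts fell by 0.53 on the log2 scale in NT (adjusted p = 0.0461) and by 0.68 in TAM cells (adjusted p = 0.018). Without NT + TPL replicate 1 the value of the single row in NT cells was −2.31. That fit kept only NT + TPL replicate 2 in its group, the library where the second row held 69.5% of the counts.

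The scaffold *PXN* was at 142 and 161 FPKM in the NT libraries, 73.2 and 42.3 FPKM after TPL, 191 and 167 FPKM in the TAM libraries and 74.3 and 69.0 FPKM in TAM cells after TPL. Both TPL groups lay below their DMSO groups, with log2 fold changes of −1.41 ± 0.235 (SE, adjusted p = 0.00476) in NT and −1.37 ± 0.234 (SE, adjusted p = 0.0059) in TAM cells. In TAM cells the adjusted p was 0.0519 without TAM + TPL replicate 2. TAM against NT cells in DMSO gave 0.25 (95% interval −0.29 to 0.80, adjusted p = 0.618). With TPL it gave 0.30 (adjusted p = 0.529) and passed only without NT + TPL replicate 1 (0.74, adjusted p = 0.05).

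*BCAR1*, the docking protein p130Cas, moved in opposite directions with tamoxifen and with TPL. It was at 32.8 and 33.9 FPKM in the NT libraries, 12.8 and 8.05 FPKM after TPL, 70.9 and 57.2 FPKM in the TAM libraries and 16.6 and 16.7 FPKM in TAM cells after TPL. The TAM libraries were above the NT libraries, and the TPL libraries were the lowest in both states. The log2 fold change with TPL was −1.70 ± 0.212 (SE, adjusted p = 0.00158) in NT and −1.98 ± 0.210 (SE, adjusted p = 0.00106) in TAM cells. Between TAM and NT cells it was 0.96 ± 0.203 (SE, adjusted p = 0.0386) in DMSO and 0.68 with TPL (SE 0.210, adjusted p = 0.118). The rise in TAM cells was lost when any library of NT, TAM or TAM + TPL was left out (6 of 8 cases, 0.79 to 1.10 over all 8, adjusted p up to 0.217) and in 4 of 12 other settings, namely *GAPDH* as reference (0.48, adjusted p = 0.173), library size (0.94, adjusted p = 0.0545), the replicate block (0.94, adjusted p = 0.0514) and limma on log2(FPKM + 0.1) (0.93, adjusted p = 0.0561). The difference with TPL passed without NT + TPL replicate 1 (1.03, adjusted p = 0.0302) and with DESeq2 (0.71, adjusted p = 0.00949).

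*CTTN*, the actin-binding Src substrate, was at 72.7 and 79.0 FPKM in the NT libraries, 52.0 and 59.1 FPKM after TPL, 57.0 and 49.1 FPKM in the TAM libraries and 40.4 and 45.6 FPKM in TAM cells after TPL. The groups did not overlap in any of the 4 comparisons, but none passed, with log2 fold changes of −0.45 (adjusted p = 0.0583) and −0.35 (adjusted p = 0.127) with TPL and −0.50 (adjusted p = 0.128) and −0.39 (adjusted p = 0.209) between TAM and NT cells. The difference with TPL in NT cells passed without NT + TPL replicate 2 (−0.58, adjusted p = 0.0435) and in 5 of 12 other settings (−0.81 to −0.23 over the 12, adjusted p = 0.0121 to 0.259). The value of −0.81 came with *GAPDH* scaling (adjusted p = 0.031). The difference between TAM and NT cells in DMSO passed with DESeq2 (−0.47, adjusted p = 0.0224) and *GAPDH* scaling (−0.97, adjusted p = 0.0389). In this comparison *GAPDH* itself had a value of 0.46 under the main scaling (log2 scale, SE 0.139, edgeR adjusted p = 0.117). Scaling to it shifted the median of all genes to −0.50. Libraries that did not overlap were common, since with TPL in NT cells 32.7% of all genes were lower in this way and 36.4% higher.

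*CAV1* had the largest difference of the 10 genes between the cell states. It was at 252 and 282 FPKM in the NT libraries, 110 and 99.6 FPKM after TPL, 28.3 and 33.3 FPKM in the TAM libraries and 10.04 and 7.40 FPKM in TAM cells after TPL, with no overlap between any pair of groups. TAM cells had 8.63-fold less *CAV1* RNA than NT cells in DMSO (log2 fold change −3.11, SE 0.188, adjusted p = 0.000313) and 12.1-fold less with TPL (−3.59, SE 0.196, adjusted p = 0.000173). TPL lowered it further, by 1.35 on the log2 scale in NT (log2 fold change −1.35, SE 0.175, adjusted p = 0.00184) and by 1.84 in TAM cells (−1.84, SE 0.187, adjusted p = 0.000894). The mean of TAM + TPL cells was 3.26% of that of NT cells. The difference between TAM and NT cells stayed between −3.22 and −3.01 when 1 library was left out, at an adjusted p of at most 0.00908.

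**Figure D3:**
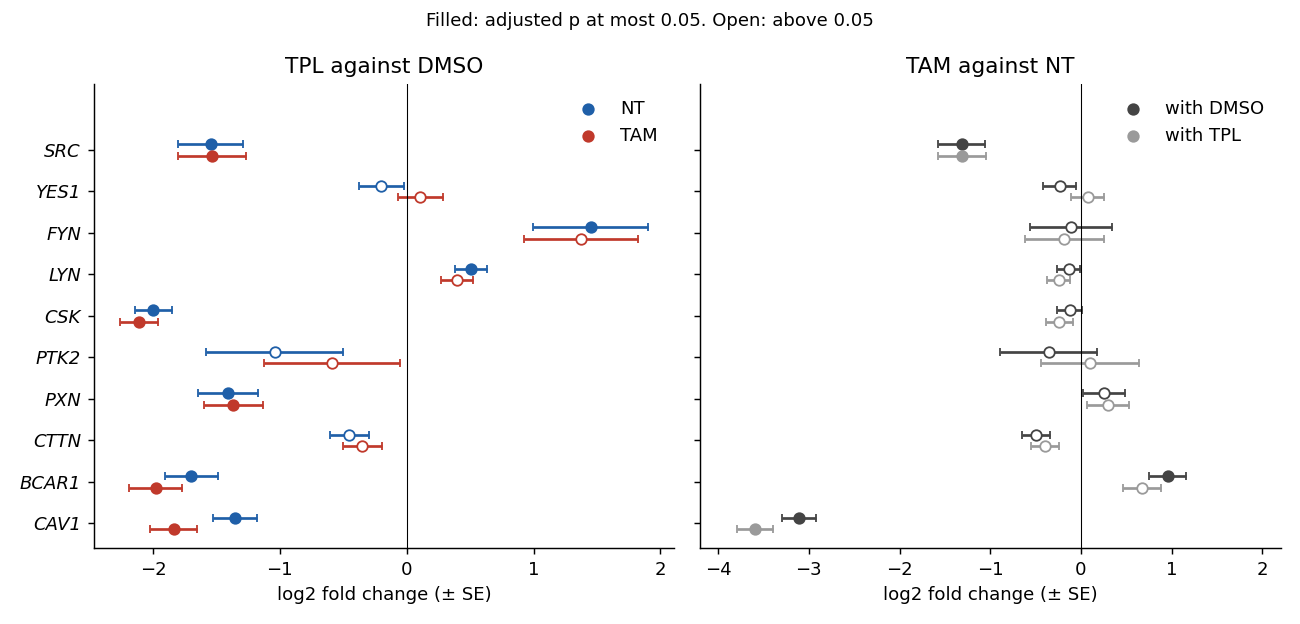
Log2 fold change of each gene with its SE, for TPL against DMSO (left, in NT and TAM cells) and for TAM against NT cells (right, in DMSO and with TPL). Filled points passed an adjusted p of 0.05. *CSK* lies near −2 in both cell states, *CAV1* stands alone below −3 on the right, and *BCAR1* is the only filled point above 0 there.

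Whether TPL acted differently in TAM and NT cells was tested as an interaction. None of the 10 genes passed (0 of 10 by either rule, beside 0.165% of all genes by the looser rule and 0% by the stricter one), with adjusted p-values of 0.533 and above, 0 of 10 at an unadjusted p of 0.05, and 0 with DESeq2. The difference of the log2 fold changes was −0.49 for *CAV1* (95% interval −1.08 to 0.11), −0.11 for *CSK* (−0.59 to 0.37), 0.01 for *SRC* (−0.90 to 0.92) and 0.45 for *PTK2* (−1.34 to 2.25). These intervals include differences of about 2-fold in *CAV1* and more in *PTK2*.

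RNAPII was listed at the main TSS of most of the 10 genes. In NT cells 9 of 10 lay in a peak (47.9% of the main TSS of all protein-coding genes), in NT cells after TPL 7 (38.4%), in TAM cells 8 (42.2%) and in TAM cells after TPL 7 (37.5%). *SRC* and *CAV1* had a peak in both DMSO lists and in neither TPL list, whereas *CSK*, *PXN*, *BCAR1*, *CTTN*, *LYN* and *PTK2* had one in all 4 lists, as 31.6% of all main TSS did. Loss from the list with TPL was 2 of 9 genes in NT and 2 of 8 in TAM cells, beside 22.9% and 19.1% of all covered TSS. *FYN* had no peak in any list, and the nearest listed peak was 213865 bases or more from its TSS. The lists hold starts and ends with no height or replicate, so a peak that is not listed may be weaker rather than gone, and no test was possible. The peak names of the TAM list carry the letter q with 0.1, and those of the other 3 lists carry the word cutoff with 0.02. Whether both are the same measure is not given in the names. In the TAM list 4584 of 11056 peak names end in a letter, as names of split peaks do, against 0 in the other lists, and its median width was 406 bases against 632 in the NT list. Cell state or TPL and peak calling therefore cannot be told apart wherever the TAM list is compared, with NT or with TAM + TPL cells, and this covers widths and separate peaks.

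The *SRC* peak in NT cells was at chr20:35974128-35974813 (hg19) and was 686 bases wide, and the TAM peak at chr20:35974267-35974715 was 449 bases wide. With TPL the nearest listed peak was 56102 bases away in NT and 56038 bases away in TAM cells. The *CAV1* peak in NT cells, at chr7:116164260-116168354, was the widest of the 10 genes at 4095 bases and reached 3264 bases into the gene. In TAM cells *CAV1* had a peak of 700 bases over the TSS and a separate peak of 580 bases within the gene, and with TPL the nearest listed peak was 313328 bases away in NT and 147012 bases away in TAM cells. Both genes thus lost a listed peak where their RNA rows fell, although the *SRC* row may hold reads of the transgene. *CSK* and *BCAR1*, whose log2 fold changes with TPL were larger in size, kept theirs at the main TSS.

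Where a peak was listed in both NT and NT + TPL cells, it was narrower with TPL for all 7 genes (62.9% of all TSS). *PXN* went from 3794 to 553 bases, *CTTN* from 2174 to 616, *BCAR1* from 1049 to 207 and *CSK* from 815 to 307, while *YES1* (893 to 722), *LYN* (363 to 242) and *PTK2* (1002 to 943) changed less. The peak of *PXN* reached 3754 bases into the gene in NT and 482 in NT + TPL cells, and that of *CSK* reached 727 and 216. In TAM cells the peak was narrower with TPL for 3 of 6 genes (44.8%), the largest step being *BCAR1* from 1102 to 250 bases. *BCAR1* also had a second listed peak over a TSS 14324 bases upstream of the main one, in the NT (385 bases), TAM (368 bases) and TAM + TPL (347 bases) lists. *YES1* lacked a peak at the main TSS in the TAM list only, where a peak of 689 bases lay 139 bases away over another of its TSS.

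**Figure D4:**
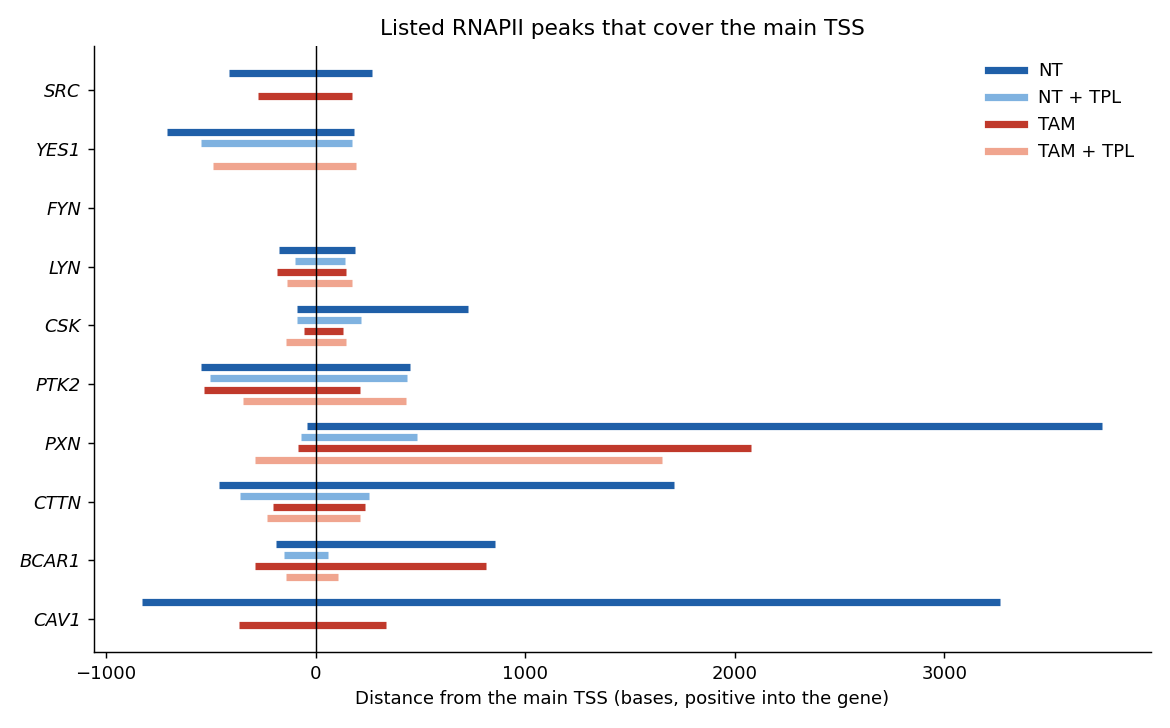
Listed RNAPII peaks that cover the main TSS of each gene, drawn as bars by distance from the TSS in bases (positive into the gene) and coloured by list. *SRC* and *CAV1* have no bar in the TPL lists, *FYN* has none at all, and the bars of *PXN* and *BCAR1* end closer to the TSS with TPL in NT cells.

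Sequence before the main TSS (hg19) is shown for *SRC* and *CAV1*, the pair that lost their listed peak with TPL. It is also shown for *CSK* and *BCAR1*, a pair that kept one at the main TSS while the RNA fell. These pairs are examples only, as such loss was about as common over all covered TSS (22.9% in NT, 19.1% in TAM cells). Each stretch is the part of the 250 bases before the TSS that lies in no annotated exon, on the strand of the gene, and capitals mark GGGCGG and its reverse complement CCGCCC, the letters of a GC box. The stretches are chr20:35974293-35974511 (plus strand), chr7:116164840-116165047 (plus), chr15:75074171-75074420 (plus) and chr16:75285523-75285696 (minus).
SRC: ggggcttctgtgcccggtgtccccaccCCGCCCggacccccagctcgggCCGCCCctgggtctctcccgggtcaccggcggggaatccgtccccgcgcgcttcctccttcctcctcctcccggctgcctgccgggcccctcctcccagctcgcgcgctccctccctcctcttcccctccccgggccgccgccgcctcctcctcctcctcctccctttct
CAV1: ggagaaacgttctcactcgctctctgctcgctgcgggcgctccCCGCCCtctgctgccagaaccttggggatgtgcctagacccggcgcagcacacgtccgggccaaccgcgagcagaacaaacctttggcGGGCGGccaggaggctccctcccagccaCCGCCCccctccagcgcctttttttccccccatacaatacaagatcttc
CSK: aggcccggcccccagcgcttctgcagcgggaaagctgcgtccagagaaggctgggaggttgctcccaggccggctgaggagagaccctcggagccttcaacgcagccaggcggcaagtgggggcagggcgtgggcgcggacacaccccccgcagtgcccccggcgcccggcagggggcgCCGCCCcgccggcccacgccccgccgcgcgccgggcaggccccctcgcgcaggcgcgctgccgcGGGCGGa
BCAR1: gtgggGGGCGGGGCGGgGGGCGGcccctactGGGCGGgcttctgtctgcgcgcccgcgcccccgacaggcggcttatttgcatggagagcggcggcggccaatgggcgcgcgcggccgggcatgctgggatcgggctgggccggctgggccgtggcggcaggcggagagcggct

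GC boxes stand in both pairs, with 2 in *SRC*, 3 in *CAV1*, 2 in *CSK* and 4 in *BCAR1*. In the whole 250 bases, 10 of 10 genes held GGGCGG on either strand, beside 59.5% of 19521 promoters of the same length, and the GC content had a median of 76.6%, beside 63.2%. TATAAA (in 9.23% of all promoters), TGACTCA (3.06%), CACGTG (7.87%) and GGAATG (9.79%) were found in 0 of 10 windows on either strand, which says only that these letters are not in these windows. *CAV1* and *LYN* had the lowest GC content of the 10, at 63.2% and 63.6%, and *PXN* the highest, at 83.6%, with 8 GC boxes.

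Around these 10 genes, 77 genes in 4 lists were counted (other Src family members and regulators, focal adhesion scaffold, Src substrates and adaptors, and caveolar proteins), of which 69 passed the filter on low counts. With TPL, 26 of 69 fell (beside 19.8% of all genes) and 6 rose (17.2%) in NT cells at an adjusted p of 0.05, and 22 fell (18.6%) and 6 rose (14.3%) in TAM cells. By the stricter rule 4 and 5 genes fell (2.71% and 2.04%) and none rose (1.22% and 0.844%). The median log2 fold changes of the 69 genes were −0.36 and −0.37, beside 0.09 and 0.05 over all genes. Between TAM and NT cells in DMSO 7 were lower (3.39%) and 1 was higher (3.46%), and none was called by the stricter rule (0.655%). The count of genes that rose depended on the scaling. With the upper quartile 10 rose in NT and 11 in TAM cells, and with *GAPDH* 3 and 4 rose, while 23 to 32 genes fell in NT and 20 to 23 in TAM cells over 5 scalings. With *GAPDH*, 17 genes were lower in TAM than in NT cells, while the median of all genes shifted to −0.50.

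Of the focal adhesion scaffold, 12 of 25 tested genes fell and 2 rose with TPL in NT cells, and 13 fell and 2 rose in TAM cells. Of all genes 19.8% fell and 17.2% rose in NT, and 18.6% and 14.3% in TAM cells. *TNS4*, a tensin at adhesion sites, went from 673 and 789 FPKM in NT to 122 and 53.2 FPKM in NT + TPL cells (log2 fold change −3.08, SE 0.373, adjusted p = 0.00142) and fell by 2.70 in TAM cells (log2 fold change −2.70, SE 0.368, adjusted p = 0.00251). *TRIP6*, a zyxin family adaptor, had 52.8 and 50.5 FPKM in TAM cells and 7.82 and 10.02 FPKM once TPL was added (−2.58, adjusted p = 0.000324). The kindlins, which activate integrins, parted in NT cells, where *FERMT1* fell (13.0 and 16.6 to 3.71 and 2.60 FPKM, −2.24, adjusted p = 0.00052) and *FERMT2* rose (11.5 and 11.8 to 25.5 and 23.8 FPKM, 1.07, adjusted p = 0.00338). *PTK2B*, the relative of focal adhesion kinase known as PYK2, rose in both cell states. The NT libraries had 26.6 and 29.1 and the NT + TPL libraries 53.7 and 47.6 FPKM (0.86, adjusted p = 0.00400), while the TAM libraries had 11.5 and 10.4 and the TAM + TPL libraries 21.8 and 18.8 FPKM (0.85, adjusted p = 0.00522). It was lower in TAM than in NT cells (−1.33, adjusted p = 0.00262). *VCL*, the actin linker vinculin, was also lower in TAM cells, at 40.5 and 42.6 FPKM against 98.7 and 126 FPKM in NT cells (−1.42, adjusted p = 0.00314). With TPL present, *SORBS3* (−1.39, adjusted p = 0.00692) and *TNS3* (−2.20, adjusted p = 0.0449) were lower and *FERMT1* (1.23, adjusted p = 0.0134) was higher in TAM than in NT cells. The *FERMT1* difference did not pass with *GAPDH* scaling (1.01, adjusted p = 0.0544), nor did that of *TNS3* with library size (−2.19, adjusted p = 0.0511) or size factors of DESeq2 (−2.17, adjusted p = 0.05001).

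Of 25 Src substrates and adaptors, 9 fell and 2 rose with TPL in NT cells, and 4 fell and 3 rose in TAM cells, and the counts in TAM cells are near the shares of all genes (18.6% and 14.3%). The median of this list in TAM cells was −0.23 on the log2 scale and 0.01 with the upper quartile. *NEDD9*, a p130Cas relative, rose from 0.46 and 0.81 to 3.46 and 2.38 FPKM in NT (2.61, SE 0.617, adjusted p = 0.0172) and from 0.20 and 0.75 to 2.42 and 2.49 FPKM in TAM cells (2.37, SE 0.610, adjusted p = 0.0253), while *BCAR1* itself fell in both. *EPS8*, an actin regulator, rose by 1.38 in NT (adjusted p = 0.00215) and 1.44 in TAM cells (adjusted p = 0.00206). *SH3PXD2A*, the scaffold TKS5, was lower in TAM + TPL than in NT + TPL cells (−1.71, adjusted p = 0.0348). The lowest point of this list in the plot of the 4 lists is *DOK1*, listed at 0 in both NT + TPL libraries and at 1.24 and 1.01 FPKM in NT cells, and it is named here because it stands apart, outside the rule for naming genes.

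Of 7 caveolar proteins, 3 fell with TPL in NT (19.8% of all genes) and 4 in TAM cells (18.6%), none rose, and 3 were lower in TAM than in NT cells in DMSO (3.39%). *CAVIN2*, a caveolar coat protein, was at 6.25 and 7.69 FPKM in the NT libraries, 1.19 and 0.84 FPKM after TPL, 2.25 and 2.48 FPKM in the TAM libraries and 0.65 and 1.15 FPKM in TAM cells after TPL. It fell with TPL in NT cells (−2.79, SE 0.351, adjusted p = 0.00162), and TAM cells had less of it than NT cells (−1.54, SE 0.330, adjusted p = 0.0394). *EHD2*, an ATPase at the neck of caveolae, had 162 and 150 FPKM in TAM cells and 30.5 and 26.8 FPKM once TPL was added (−2.49, adjusted p = 0.000799). Of 12 other Src family members and regulators, 2 fell and 2 rose with TPL in NT cells, and 1 fell and 1 rose in TAM cells, which is near or below the shares of all genes (19.8% and 17.2% in NT, 18.6% and 14.3% in TAM cells).

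**Figure D5:**
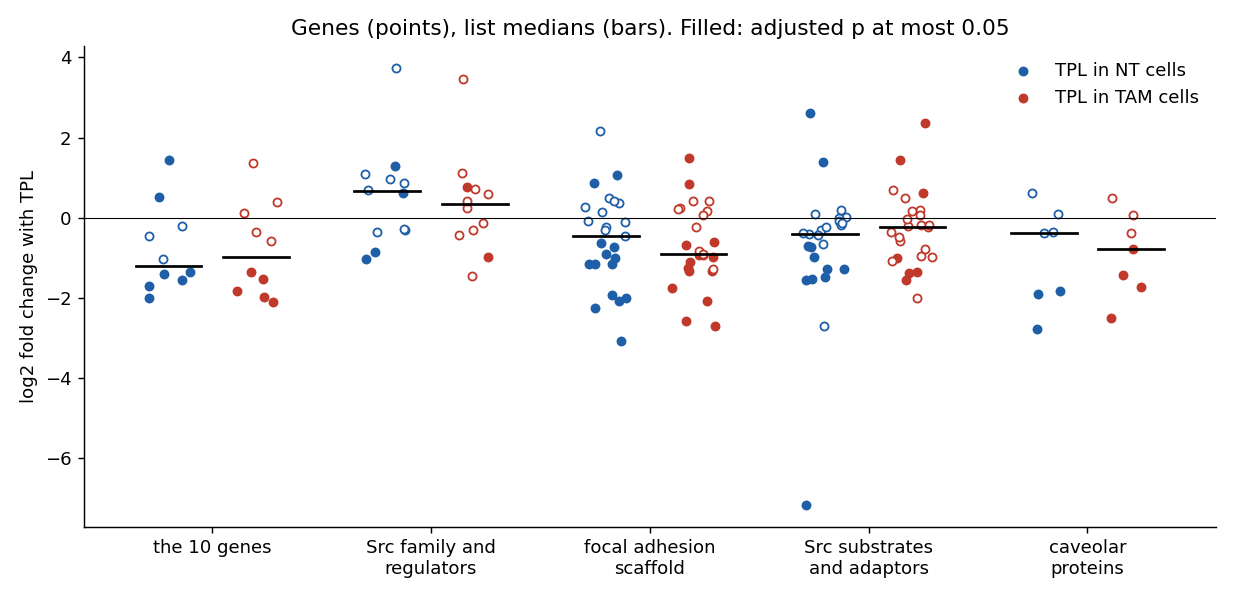
Log2 fold change with TPL in NT and TAM cells of the 10 genes and of the genes of the 4 lists that were tested. Points are genes, filled where the adjusted p was 0.05 or less, and bars are medians, which lie at −1.20 and −0.98 for the 10 genes and at 0.66 and 0.33 for the other Src family members and regulators.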

How the data were processed

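The authors sequenced poly-A RNA, mapped it to reference transcripts (Bowtie2) and deposited expected counts and FPKM from RSEM, with FPKM scaled per length and library. The RNAPII peak lists (other values: starts and ends, with no score) were made by the authors on hg19 with MACS. Whether replicates were pooled is not given in the sources used here, and each list's peak names carry only the first replicate. TPL was given at 125 nM. Expected counts were rounded and fitted with edgeR 4.0.16 (R 4.3.3, quasi-likelihood, TMM, filterByExpr) over 8 libraries in 4 groups, with Benjamini-Hochberg adjustment over 16948 genes. The fit estimated a biological coefficient of variation of 0.315. RNA rows of single transcripts were kept apart except in 1 alternative. The fit was tested on simulated counts with less spread between replicates than these data, so that check does not measure how reliable the calls are. DESeq2 1.42.0 and limma 3.58.1 served as alternatives. The main TSS is the start of the canonical transcript in GENCODE v44 lifted to hg19, and promoters are the 250 bases before it. Levels of the 4 lists were named as up to 3 rises and 3 falls per comparison past an adjusted p of 0.05, with a mean of at least 1 FPKM and groups that do not overlap. The 10 genes, the lists and the motifs were chosen with earlier results of these data known. The precision is limited by 2 libraries a group.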

Additional observations from a re-analysis of the deposited data

Results flagged for a closer look

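*VCL* (vinculin) is set out because its libraries moved in opposite ways with TPL in the 2 cell states. It went from 98.7 and 126 FPKM in NT to 66.2 and 54.3 FPKM in NT + TPL cells (log2 fold change −0.90, SE 0.157, adjusted p = 0.00554), and from 40.5 and 42.6 FPKM in TAM to 47.5 and 48.5 FPKM in TAM + TPL cells (0.17, SE 0.156, adjusted p = 0.435). The difference of the log2 fold changes was 1.07 (SE 0.221), with an edgeR adjusted p of 0.172 over all genes, so it did not pass. The rise of *VCL* in TAM cells did not pass either. Outside the genes searched, the libraries of *TLN2* also moved in opposite ways, at a mean of 0.575 FPKM (difference 1.71, edgeR adjusted p = 0.285).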

How the results depend on the processing

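Each value was recomputed with DESeq2, with size factors of DESeq2, library size, the upper quartile or *GAPDH* as scaling, without the filter or with at least 10 counts in every library, with a replicate block, with only the 2 groups compared, with limma on log2(FPKM + 1) and log2(FPKM + 0.1), with all rows of a gene summed, and without each library. Of 990 values for single genes, 881 kept their direction and their side of an adjusted p of 0.05, 44 lost the call, 30 gained it and 35 changed sign, and none of the 35 was called with its main value. The cause of these changes was not tested. The number of genes called by the stricter rule moved most. With TPL in NT cells it was 1 of 10, and became 5 with DESeq2, 5 with at least 10 counts, 5 with rows summed, 2 with *GAPDH*, 2 without the filter, and 0 with only the 2 groups. With TPL in TAM cells it was 2, and became 5 with DESeq2, 5 with rows summed, and 1 with size factors of DESeq2, with library size, with the upper quartile, with *GAPDH* or with only the 2 groups. Between TAM and NT cells it was 1 and became 2 with DESeq2, and with TPL present it was 1 and became 2 with DESeq2 and 0 with only the 2 groups, where 1 gene passed an adjusted p of 0.05. Leaving out 1 library gave 0 to 1 genes called with TPL in NT cells, 0 to 2 in TAM cells, 0 to 1 between TAM and NT cells and 0 to 1 with TPL present, and 1 to 3 genes past an adjusted p of 0.05 in each of the latter 2. When any 1 library of NT, TAM or TAM + TPL was left out, no gene of the 10 was called with TPL, and of all genes tested 0 were called with TPL in either cell state, so these counts were lost for the whole table and not for these genes alone. With *GAPDH* scaling the median of all genes shifted to −0.26 and −0.07 with TPL in NT and TAM cells, to −0.50 between TAM and NT cells and to −0.25 with TPL present, and with the upper quartile to 0.31 and 0.29 with TPL. Of all genes past an adjusted p of 0.05 with TPL in NT cells, 2919 were higher and 3355 lower, against 4088 and 2625 with the upper quartile and 1358 and 4381 with *GAPDH*. In TAM cells these were 2431 and 3159, 3613 and 2298, and 1626 and 3056. Between TAM and NT cells they were 586 and 574, against 321 and 1687 with *GAPDH*, and with TPL present 479 and 713, against 282 and 961. Scalings were applied to the 4 lists after seeing the data. With the upper quartile 10 list genes rose in NT and 11 in TAM cells (6 and 6 with the main scaling), and with *GAPDH* 3 rose in NT cells, 17 were lower between TAM and NT cells (7) and 0 were higher with TPL present (1), where 13 were lower.

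Whether the replicate number pairs the samples is not given by the labels. The differences between replicates correlated at −0.41 to 0.18 between groups over 12455 genes. These values cannot exclude a pairing or a batch, and the replicate block is given as a setting only. With the replicate block 0 of the 10 genes were called with TPL in NT cells, 0 in TAM cells, 0 between TAM and NT cells and 0 with TPL present, and 1 gene each passed an adjusted p of 0.05 in the latter 2. With the block 0 of all genes were called with TPL in either state.

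The following values changed sign. With *GAPDH* scaling they were −0.0004 for *YES1* with TPL in TAM cells, −0.23 for *PXN* between TAM and NT cells, −0.14 for *YES1* and −0.076 for *PTK2* between these with TPL present, and, for the difference of the TPL effects, 0.16 for *FYN*, 0.14 for *LYN* and 0.13 for *CSK*. With the upper quartile *YES1* had 0.0225 with TPL in NT cells. With rows summed *PTK2* had 0.0534 between TAM and NT cells, −0.0907 with TPL present and −0.14 for the difference of the TPL effects. Leaving out 1 library gave ranges of −0.0687 to 0.27 for *YES1* with TPL in TAM cells, −0.40 to 0.25 for *FYN* between TAM and NT cells, and, with TPL present, −0.0802 to 0.26 for *YES1*, −0.52 to 0.14 for *FYN* and −0.55 to 1.399 for *PTK2*. For the difference of the TPL effects these ranges were −0.27 to 0.35 for *SRC*, −0.44 to 0.22 for *FYN*, −0.26 to 0.0412 for *CSK*, −0.22 to 1.73 for *PTK2*, −0.28 to 0.45 for *PXN*, −0.0233 to 0.24 for *CTTN* and −0.55 to 0.0487 for *BCAR1*.

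Of the peak counts, those over any TSS or within 1 kb of the main one differed by at most 1 gene from the main counts. Peaks at least as wide as the median of their list covered the main TSS of 4 genes in the NT + TPL list and of 3 in the TAM + TPL list.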
